A study of Mus musculus with 16 samples.

Results

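Non-EA-HFSCs are the skin cells that lack the bulge stem cell marker CD34 and carry α6-integrin, sorted in early anagen, the start of a hair growth phase. They are mostly epidermal and lower outer root sheath (ORS) keratinocytes. Their histone marks were mapped by ChIP-seq, and the 3 peak lists of these cells are described here together: H3K4me3, H3K27me3 and H3K9me3, that is, histone H3 trimethylated on lysine 4, 27 or 9. They hold 59859 of the 219698 peaks in the 12 lists of the series, with 24498 peaks of H3K4me3, 17488 of H3K27me3 and 17873 of H3K9me3. The other lists come from the CD34+ bulge hair follicle stem cells of the same stage (EA-HFSCs), from the same kind of stem cells in late catagen (LC-HFSCs), and from the CD34- cells of late catagen (non-LC-HFSCs). All groups were wild-type male mice of the strain CD1 x FVB, with no allele or treatment. The paper itself states that mice of both sexes served for most of its work. The early anagen mice were PD22 to PD25 and the late catagen mice PD38 to PD44, and nuclei of 15 to 20 mice were cut with micrococcal nuclease before the immunoprecipitation. Reads of independent pools were combined before peaks were called against IgG, so that each mark has 1 list and no measure of the spread between animals. Intervals given below are 95% Wilson intervals and cover counting error only.

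H3K4me3 is placed at active or poised gene starts, above all where the DNA is rich in CpG dinucleotides. H3K27me3 is laid down by Polycomb repressive complex 2, often in broad domains over genes for developmental regulators, and a start that carries both marks is called bivalent in stem cell work. H3K9me3 is the mark of constitutive heterochromatin and of silenced repeats, and it also covers clustered genes for KRAB zinc finger proteins, which themselves recruit H3K9 methylation to repeats. The non-HFSC gate holds several kinds of cells, so that 2 marks at 1 place on the same chromosome and 2 marks there in different cells cannot be told apart. Nor can a mark in fewer cells and less of it in each cell.

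A locus or a gene start was given a mark combination by the lists that had a peak there. To show the DNA behind the combinations, 120 bases before the start of 1 gene of each are printed 5′ to 3′ on the gene's strand, with every CpG in capitals. Each is the highest-scoring gene whose stretch holds a number of CpG within 0.5 of the median of its combination and has no annotated exon. Timm17a (chr1:137210356-137210475, - strand), for a subunit of the mitochondrial import machinery, had H3K4me3 only. Ankrd33b (chr15:31297515-31297634, - strand) had H3K4me3 and H3K27me3. Klf14 (chr6:30908991-30909110, - strand), for a Krüppel-like transcription factor, had all 3 marks. Zfp119b (chr17:56084598-56084717, - strand), for a zinc finger protein, had H3K4me3 and H3K9me3. These 4 stretches held 8 or 9 CpG.
Timm17a: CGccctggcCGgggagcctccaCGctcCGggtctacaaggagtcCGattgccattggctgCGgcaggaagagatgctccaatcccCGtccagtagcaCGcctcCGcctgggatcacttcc
Ankrd33b: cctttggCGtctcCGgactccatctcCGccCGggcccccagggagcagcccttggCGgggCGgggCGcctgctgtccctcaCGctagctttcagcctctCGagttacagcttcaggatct
Klf14: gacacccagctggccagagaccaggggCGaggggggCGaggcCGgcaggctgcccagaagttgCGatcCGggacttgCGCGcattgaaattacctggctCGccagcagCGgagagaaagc
Zfp119b: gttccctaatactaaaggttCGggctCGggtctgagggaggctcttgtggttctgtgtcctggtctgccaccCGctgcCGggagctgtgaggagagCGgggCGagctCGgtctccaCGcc

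The starts without H3K4me3 were poorer in CpG. Prdm12 (chr2:31495437-31495556, + strand), for a regulator of sensory neurons, had H3K27me3 only and 3 CpG. Ptgis (chr2:167066105-167066224, - strand), for prostacyclin synthase, had H3K27me3 and H3K9me3 and 4 CpG. Zfp930 (chr8:71750122-71750241, + strand), for another zinc finger protein, had H3K9me3 only and 1 CpG.
Prdm12: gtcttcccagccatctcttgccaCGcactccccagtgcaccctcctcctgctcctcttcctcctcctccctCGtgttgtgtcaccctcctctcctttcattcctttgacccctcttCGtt
Ptgis: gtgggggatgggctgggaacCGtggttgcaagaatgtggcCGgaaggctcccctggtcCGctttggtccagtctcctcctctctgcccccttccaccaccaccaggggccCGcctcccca
Zfp930: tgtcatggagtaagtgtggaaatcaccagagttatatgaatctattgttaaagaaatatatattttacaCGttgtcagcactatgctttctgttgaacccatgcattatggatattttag

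The 3 marks mostly occupied separate places. After peaks that overlapped or touched were merged across the lists, 55830 loci remained, of which 3211 (5.75%, interval 5.56 to 5.95%) held more than 1 mark. H3K4me3 alone made up 21427 loci (38.4%), H3K9me3 alone 16972 (30.4%) and H3K27me3 alone 14220 (25.5%). H3K4me3 with H3K27me3 was the commonest combination with 2412 loci (4.32%). H3K27me3 with H3K9me3 followed with 500 loci (0.896%), then all 3 marks with 181 (0.324%) and H3K4me3 with H3K9me3 with 118 (0.211%). Counted in bases, 4.06 Mb of the 136.2 Mb under any peak lay under both H3K4me3 and H3K27me3, 0.807 Mb under both H3K27me3 and H3K9me3, 0.0703 Mb under both H3K4me3 and H3K9me3, and 0.0187 Mb under all 3. A locus can hold 3 marks without a base that carries all of them.

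**Figure D1:**
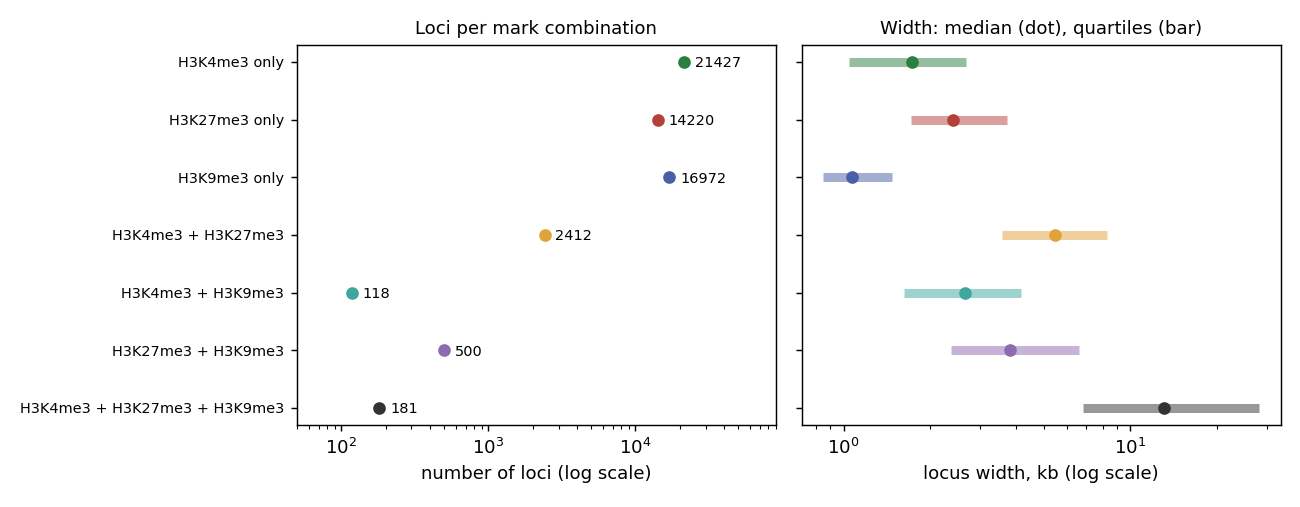
Left, the number of merged loci per mark combination on a log axis; right, the width of these loci in kb on a log axis, with the median as a dot and the quartiles as a bar. Loci with H3K4me3 and H3K27me3 numbered 2412, and the 181 loci with all 3 marks were the widest, with a median of 13115 bp. A merged locus spans all the peaks it joins, so that more marks make a wider locus by construction.

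The combinations differed in where they lay. Of the loci with H3K4me3 and H3K27me3, 70.8% lay within 3 kb of a protein-coding gene start, as did 70.7% of those with all 3 marks. The share was 51.3% for H3K4me3 alone and 12.5% for H3K27me3 alone. It was 39.7% for H3K4me3 with H3K9me3, 14.5% for H3K27me3 with H3K9me3 and 3.10% for H3K9me3 alone, of which 67.3% lay outside genes and their starts. Wider loci have more room to reach a start, and the median width was 5452 bp with H3K4me3 and H3K27me3 and 13115 bp with all 3 marks, against 1735 bp for H3K4me3 alone, 2400 bp for H3K27me3 alone and 1071 bp for H3K9me3 alone. On the X chromosome of these mice, taken here as male, H3K27me3 had 0.623 and H3K9me3 0.543 peaks per Mb, against at least 4.23 and 5.32 per Mb on every autosome. H3K4me3 had 3.49 per Mb there, against at least 6.92.

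H3K4me3 and H3K27me3 shared places more often than the genome share of either would give, and H3K4me3 and H3K9me3 less often. H3K27me3 peaks lay on 2.67% of the sequenced bases, H3K4me3 peaks on 1.91% and H3K9me3 peaks on 0.92%. The middle of a peak gives a comparison that does not depend on the width of that peak. Of the H3K4me3 middles, 10.4% (interval 10.03 to 10.8%) lay inside an H3K27me3 peak, 3.904 times the genome share. Of the H3K27me3 middles, 6.18% (5.84 to 6.55%) lay inside an H3K4me3 peak, 3.24 times the genome share. H3K9me3 middles lay in H3K4me3 peaks in 0.330% (0.255 to 0.426%), 0.173 times the genome share, and H3K4me3 middles lay in H3K9me3 peaks in 0.274%, 0.298 times the genome share. H3K9me3 middles lay in H3K27me3 peaks in 3.86% (3.58 to 4.15%), 1.45 times the genome share. H3K27me3 middles lay in H3K9me3 peaks in 1.09% (0.950 to 1.26%), 1.19 times the genome share. These shares over the whole genome take no account of base composition or of how well reads map, and the part of either was not tested.

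**Figure D2:**
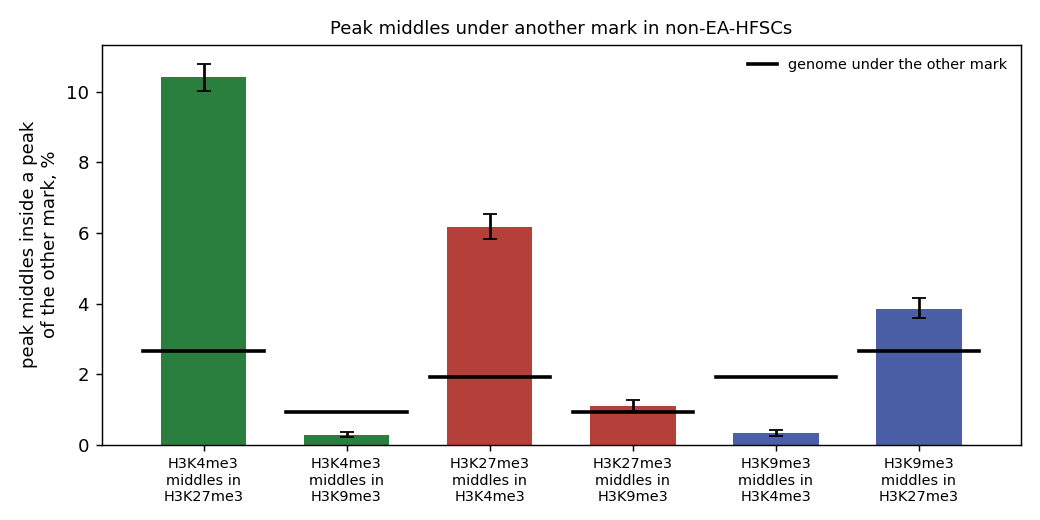
Percent of the peak middles of each mark that lay inside a peak of another mark, with 95% Wilson intervals; black lines give the percent of sequenced bases under that other mark. H3K4me3 and H3K27me3 middles stood above the line for each other (10.4% against 2.67% and 6.18% against 1.91%), and H3K9me3 middles stood below the line for H3K4me3 (0.330% against 1.91%).

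With any overlap of at least 1 bp counted, 2745 H3K27me3 peaks (15.7%) overlapped an H3K4me3 peak and 2945 H3K4me3 peaks (12.0%) overlapped an H3K27me3 peak. Only 163 H3K4me3 peaks (0.665%) and 163 H3K9me3 peaks (0.912%) overlapped each other. H3K9me3 met H3K27me3 in 781 of its peaks (4.37%), which reached 697 H3K27me3 peaks (3.99%). In the 3102 overlapping pairs of H3K4me3 and H3K27me3, the H3K4me3 peak lay wholly inside the H3K27me3 peak in 61.4%, and the pair was staggered in 37.0%. H3K9me3 likewise lay inside H3K27me3 in 65.2% of 798 pairs. The 166 pairs of H3K4me3 and H3K9me3 were staggered in 69.9%, with a median shared length of 528 bp. Where at least 50% of the H3K27me3 peak had to be shared, the share of H3K27me3 peaks with H3K4me3 was 2.63%, and with scores of at least 100 in every list it was 24.0%.

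Peaks of the 3 marks lay nearer to each other than positions taken every 10 kb along the genome, also where they did not overlap. The median H3K27me3 peak was 21688 bp from the nearest H3K4me3 peak, edge to edge, and the median grid position 81619 bp. The median H3K9me3 peak was 38020 bp from H3K4me3. From H3K4me3 to the nearest H3K27me3 peak the median was 73868 bp against 186737 bp for the grid, and from H3K9me3 it was 134559.5 bp. To the nearest H3K9me3 peak, H3K27me3 had a median of 40788 bp and H3K4me3 57748.5 bp, against 77324 bp for the grid.

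At short range the order changed for H3K4me3 and H3K9me3. Within 1 kb of an H3K4me3 peak lay 2.15% of the H3K9me3 peaks and 3.65% of the grid positions, whereas within 100 kb lay 71.1% of the H3K9me3 peaks and 53.7% of the grid. H3K9me3 peaks were thus rarer than the grid next to H3K4me3 and commoner at long range. For H3K27me3 there was no such change of order, with 18.2% of its peaks within 1 kb of an H3K4me3 peak and 86.5% within 100 kb.

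**Figure D3:**
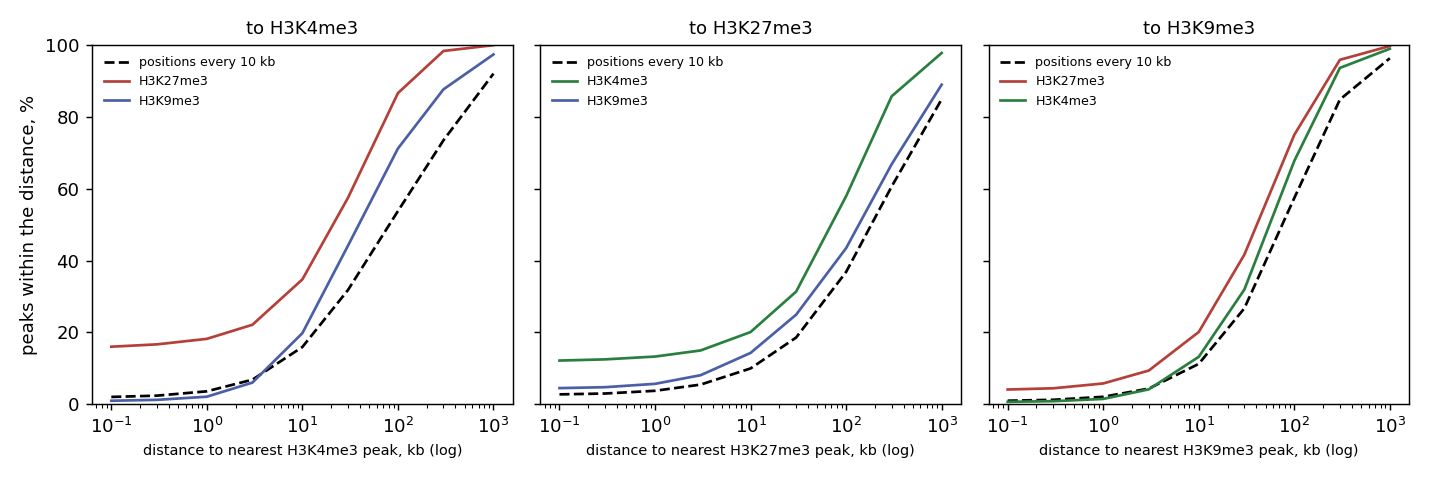
Percent of the peaks of each mark (solid lines) and of positions every 10 kb (dashed) that lay within a given distance, in kb on a log axis, of the nearest peak of the mark named above each panel. For H3K9me3 against H3K4me3 the line started under the dashed one (2.15% against 3.65% within 1 kb) and ended above it (71.1% against 53.7% within 100 kb).

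Width and strength differed between the combinations. A wider peak meets a peak of another mark more often for its width alone, so the widths by combination are a description only. H3K27me3 peaks had a median width of 2400 bp alone, 4709.5 bp with H3K4me3, 3223 bp with H3K9me3 and 12486 bp with both. With the H3K27me3 peaks ranked by width into 10 equal groups, the share that overlapped H3K4me3 went from 5.21% in the narrowest group (369 to 1420 bp) to 47.1% in the widest (7243 to 66042 bp). The share whose middle lay in an H3K4me3 peak went from 3.49% to 14.9%. H3K4me3 peaks were instead narrower with H3K27me3 than alone, with medians of 1413 and 1735 bp. H3K9me3 peaks had medians of 1071 bp alone, 1073.5 bp with H3K27me3 and 1389 bp with H3K4me3. With scores of at least 100 in every list, H3K27me3 peaks without H3K4me3 had a median width of 4407.5 bp and those with it 5929.5 bp, against 2417 and 4882 bp over all peaks.

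The score of a peak is 10 times the negative log10 of its p-value against IgG, and it rises with width and depth as well as with enrichment. H3K27me3 peaks with H3K4me3 had a median score of 254.9 and those alone 71.2. H3K4me3 peaks went the other way, with 228.6 where H3K27me3 overlapped and 612.9 alone. H3K4me3 peaks that met H3K27me3 were richer in CpG, with a median ratio of observed to expected CpG of 0.625 against 0.428 for those alone and 0.191 for the genome. H3K9me3 peaks alone had a ratio of 0.154, below that of the genome.

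The highest-scoring loci of each combination, ranked by the weakest mark present, are extremes and do not stand for the typical locus. Median widths were 5452 bp with H3K4me3 and H3K27me3, 2400 bp with H3K27me3 only and 13115 bp with all 3 marks. Among loci with H3K4me3 and H3K27me3, a 26695-bp locus (chr11:84325658-84352352) held the start of Lhx1, a LIM homeobox regulator of kidney and head development, with a start of the neighbour Aatf at its edge. Its score was 2558.4 for H3K4me3 and 2881.7 for H3K27me3. The next, chr7:37472357-37485722, held the start of Tshz3, a zinc finger developmental regulator. With H3K27me3 only, a 22873-bp locus (chr2:158426605-158449477) covered Slc32a1, the vesicular transporter of inhibitory neurons, and a locus on chr13:23396679-23410937 lay 50140 bp from the nearest start. With all 3 marks, 31186 bp around Klf14 (chr6:30895031-30926216) had scores of 712.1, 858.4 and 706.8 for H3K4me3, H3K27me3 and H3K9me3, and a locus of 30878 bp on chr13:22079961-22110838 held the start of the protease gene Prss16.

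Outside the loci of Klf14 and Prss16, the leading loci with H3K9me3 lay at the zinc finger gene Zfp873, at Trim24 or far from gene starts. The highest H3K4me3 and H3K9me3 locus, chr10:81510198-81532776, held the start of Zfp873, with scores of 1471 for H3K4me3 and 817.3 for H3K9me3. The next, chr6:37819836-37829038, held that of Trim24, a transcription cofactor that reads histone tails. The 2 highest loci with H3K9me3 only were neighbours, on chr12:20232417-20240336 and chr12:20247571-20254869, and lay 181463 and 166930 bp from the nearest start. With H3K27me3 and H3K9me3, the leading loci were chr18:84107645-84119158, 136796 bp from the start of Tshz1, and chr3:96164452-96168233, 66273 bp from that of Fcgr1. With H3K4me3 only, the leading loci held the starts of Mki67ip (chr1:120217818-120219989), for a nucleolar protein that binds the proliferation antigen Ki-67, and of Snx18 (chr13:114402667-114408971), for a sorting nexin. Among H3K4me3 peaks, 2701 share the score 3100 and 275 score higher, so that their order at the top is not resolved.

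Of the 22367 protein-coding genes, 13341 (59.6%) had an H3K4me3 peak within 3 kb of the start, 3480 (15.6%) an H3K27me3 peak and 626 (2.8%) an H3K9me3 peak. H3K4me3 only was found at 11001 genes (49.2%) and no mark at 7412 (33.1%). H3K4me3 with H3K27me3 was found at 2026 genes (9.06%), more than the 1302 (5.82%) with H3K27me3 only. H3K9me3 stood alone at 254 genes (1.14%), with H3K4me3 at 220 (0.984%) and with H3K27me3 at 58 (0.259%), and all 3 marks were found at 94 genes (0.42%). Of the genes with H3K27me3, 60.9% (interval 59.3 to 62.5%) also had H3K4me3, and of those with H3K9me3, 50.2% (46.3 to 54.1%) did. The authors state that the reads did not saturate the calls of H3K27me3 and H3K9me3, so a start without such a peak may have had the mark below the threshold.

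Within the window the 2 marks of a pair were placed differently. At 2026 genes with H3K4me3 and H3K27me3, the peaks overlapped in 88.7%, and the start itself lay under both marks in 57.6%, under H3K4me3 alone in 26.3% and under H3K27me3 alone in 12.6%. At the 220 genes with H3K4me3 and H3K9me3, the peaks overlapped in 17.7%, and only 4 starts lay under both. H3K4me3 covered 91.4% of those starts and H3K9me3 3.64%, whereas 2900 bp upstream H3K9me3 covered 41.8%. A peak that enters the 3-kb window from outside covers its edge, so the choice of genes favours high values there. Under H3K9me3 alone, 26.4% of the 254 starts were covered, against 34.6% at 3 kb upstream. With the start itself as the window, 1213 genes had H3K4me3 and H3K27me3 only, and 7 had H3K4me3 and H3K9me3 only.

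**Figure D4:**
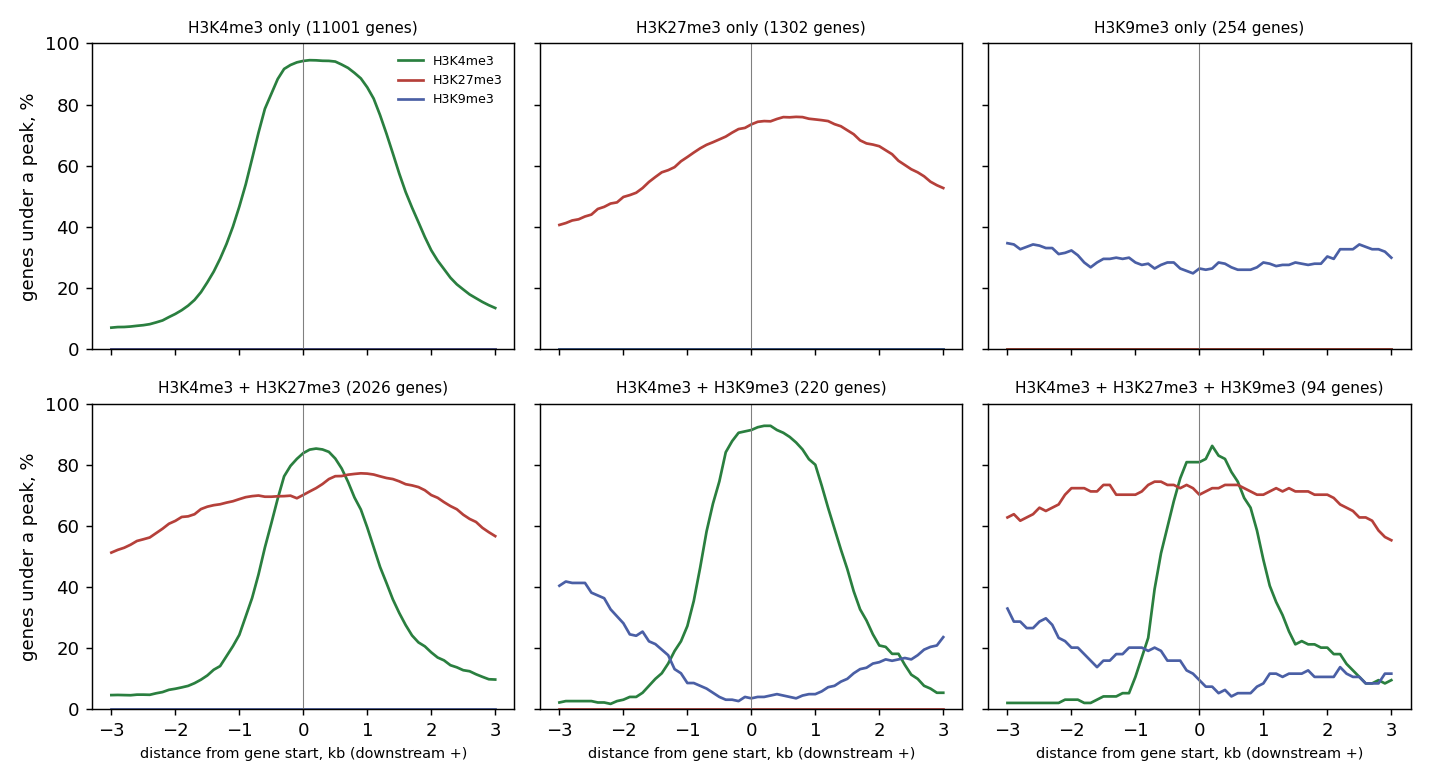
Percent of the genes of 6 mark combinations that lay under a peak of H3K4me3 (green), H3K27me3 (red) or H3K9me3 (blue), every 100 bp from 3 kb upstream to 3 kb downstream of the gene start. H3K4me3 was centred just downstream of the start, H3K27me3 spanned the window, and in genes with H3K4me3 and H3K9me3 the H3K9me3 line dipped to 3.64% at the start.

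CpG content, which the combinations did not use, was higher at starts with H3K4me3. In the 1000 bp around the start, the median ratio of observed to expected CpG was 0.735 for H3K4me3 only, 0.691 for H3K4me3 with H3K27me3, 0.702 for H3K4me3 with H3K9me3 and 0.717 for all 3 marks. It was 0.413 for H3K27me3 only, 0.484 for H3K27me3 with H3K9me3, 0.209 for H3K9me3 only and 0.182 for no mark. A ratio of at least 0.6 was reached by 45.7% of all starts, 68.4% of those with H3K4me3 and H3K27me3, 24.3% with H3K27me3 only, 5.91% with H3K9me3 only and 2.62% with no mark.

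Some of the strongest double-marked starts stood at the rim of a neighbour's domain. By the weaker score, the leading 5 genes with H3K4me3 and H3K27me3 were Aatf, Otx1, Tshz3, Pcgf1 and Bub3. Otx1, a homeobox regulator of the brain, lay inside its own H3K27me3 peak of 25410 bp. Aatf, an apoptosis antagonist gene, started 8 bp outside the H3K27me3 peak over Lhx1. Bub3, of the mitotic spindle checkpoint, started 409 bp from an H3K27me3 peak of 34092 bp that also lay at the homeobox gene Hmx2 beside it. Pcgf1, itself a Polycomb subunit gene, started 1733 bp from an H3K27me3 peak of 15235 bp that did not overlap its H3K4me3 peak. Another gene start lay within 3 kb for 12.2% of the genes with H3K4me3 and H3K27me3 and for 24.9% of those with H3K4me3 only.

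Most epidermal basal genes had H3K4me3 in the sorted cells. The α6-integrin+ gate takes basal keratinocytes, and of 17 epidermal basal genes matched, 14 had H3K4me3 only, against 49.2% of all genes, among them the basal keratins Krt5 and Krt14, the hemidesmosome genes Itgb4 and Col17a1, and Cdh1, each with a score of 3100. Krt5 and Krt14 had H3K4me3 peaks of 8742 and 9738 bp. Itga6, the α6-integrin gene itself, and Trp63, the master regulator of stratified epithelium, had no peak at the annotated gene start and H3K4me3 with a score of 3100 at another of their transcript starts. Cd34, whose protein these cells lack, had H3K27me3 only, with a score of 271.2. Dst, for a plakin of the hemidesmosome, had H3K4me3 and H3K27me3. With it, 15 of the 17 genes (88.2%) had H3K4me3, and so did 12 of 14 bulge stem cell genes (85.7%), whose cells lie outside the gate, against 59.6% of all genes. Of 14 outer root sheath and hair lineage genes, 9 (64.3%) had H3K4me3, near that share of all genes.

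Genes of other cell types mostly lacked H3K4me3. It was found at 0 of 9 skeletal muscle genes, 1 of 15 leukocyte genes, 3 of 10 endothelial genes, 3 of 9 melanocyte genes and 5 of 13 dermal fibroblast genes, against 59.6% of all genes. H3K27me3 was found at 5 of the muscle genes (Acta1, Myod1, Des, Pax7 and Myh4), 5 leukocyte genes (Cd3e, Coro1a, Cd3g, Cd207 and, with H3K4me3, H2-Ab1), 4 endothelial, 3 melanocyte and 9 fibroblast genes. Over all genes, the share with H3K27me3 was 15.6%. Acta1, for skeletal actin, had a score of 1576.5, and Prrx1, a mesenchymal homeobox regulator, 1714.2. Ptprc, the pan-leukocyte marker CD45, had no peak. The H3K4me3 at Mitf and Dct (melanocyte), Col1a2 and Vim (fibroblast) and Kdr (endothelial) had scores of 50.94 at Col1a2 to 2669.9 at Mitf, and a few such cells in the sort and the mark in keratinocytes cannot be told apart.

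H3K4me3 alone marked the genes of growth and division. It was the combination of all 14 housekeeping genes, all 17 cell cycle and replication genes, 77 of 82 ribosomal protein genes and 62 of 67 histone cluster genes, against 49.2% of all genes. Mki67, Pcna, Ccna2 and Mcm2 each had a score of 3100. The enzymes that write and erase the 3 marks followed: 12 of 13 genes for H3K4 methylation, 12 of 13 for H3K9 methylation and 9 of 12 for H3K27 methylation had H3K4me3 only, among them Ezh2, Eed and Suz12, the core of Polycomb repressive complex 2. Bmi1 and Phc1, of Polycomb repressive complex 1, also had H3K27me3, with scores of 279.7 and 262.5 as their weaker marks. Of 7 cell cycle brakes, the inhibitors of cyclin-dependent kinases, 3 had H3K4me3 only (Cdkn1a, Cdkn1b and Cdkn2c), against 49.2% of all genes. Another 3 had H3K4me3 and H3K27me3 (Cdkn2a, Cdkn2b and Cdkn1c), against 9.06%, and 1 had no peak, against 33.1%. Cdkn2a and Cdkn2b shared an H3K27me3 peak of 49901 bp with a score of 446.6, with H3K4me3 scores of 1233.1 and 1028.3.

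**Figure D5:**
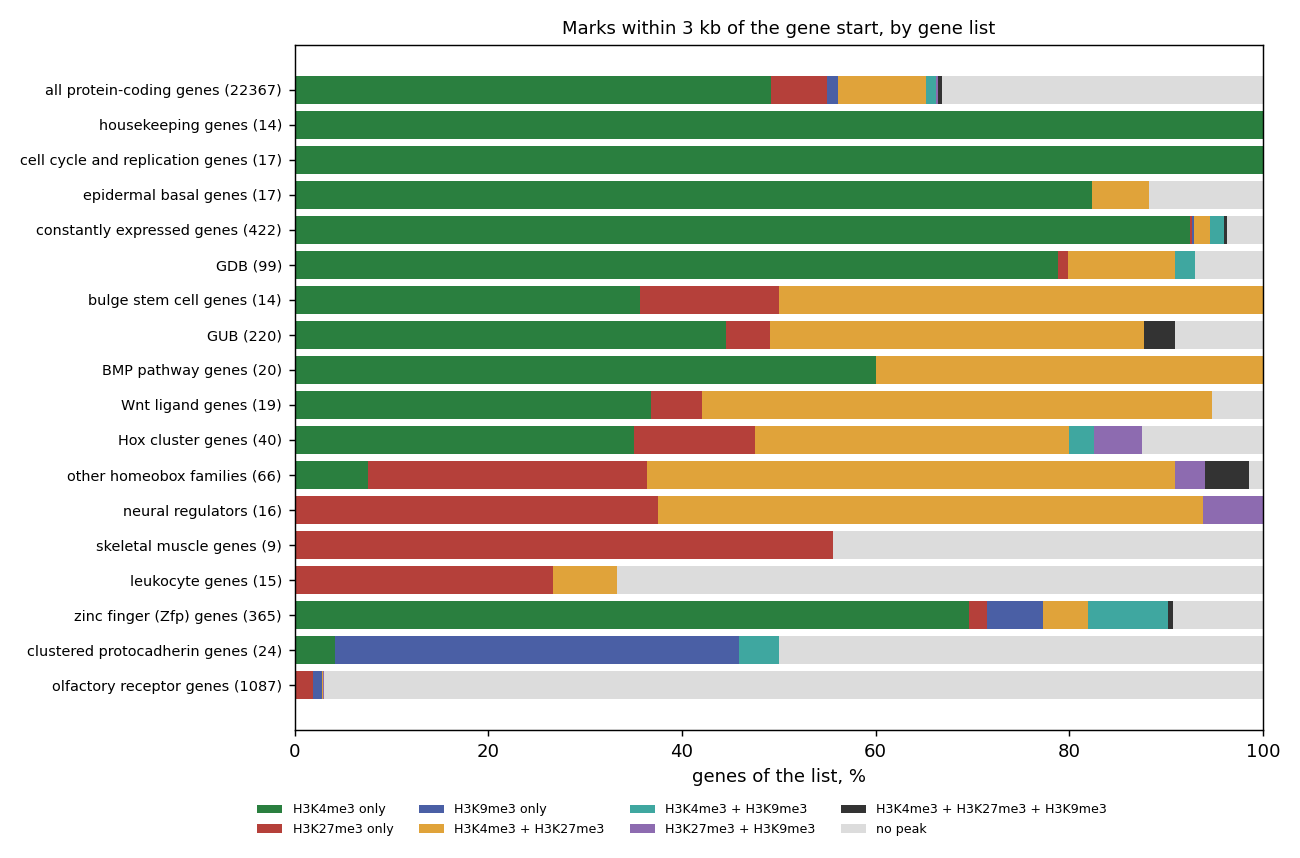
Percent of the genes of each list (number of genes in parentheses) by the marks within 3 kb of the start, with all protein-coding genes at the top. GUB and GDB are the study's lists of genes higher and lower in bulge cells. Housekeeping and cell cycle genes had H3K4me3 only, neural regulators all had H3K27me3, and 1054 of 1087 olfactory receptor genes had no peak.

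H3K27me3 was common at regulators of other tissues, and not only there. It was found at 16 of 16 neural regulators, 23 of 24 known Polycomb targets and 60 of 66 entries of homeobox families outside the Hox clusters, against 15.6% of all genes. The Polycomb targets were listed as such, so their share is no separate result. The homeobox families include the follicle genes Lhx2, Dlx3 and Msx2. Bulge stem cell genes had H3K27me3 at 9 of 14, and outer root sheath and hair lineage genes at 6 of 14. Sebaceous and infundibulum genes had it at 4 of 7. Of the neural regulators, 9 had H3K4me3 as well, led by En2 and Neurog2 with weaker scores of 617 and 614.2. Neurog1, Otx2, En1, Pax6 and Gad2 were among those with H3K27me3 only, with a score of 2453.5 at Neurog1. Regulators of endoderm had H3K27me3 only in 7 of 12, against 5.82% of all genes, among them Cdx2, Pdx1 and Foxa2, with a peak of 27969 bp at the pancreatic regulator Pdx1. Among the 66 homeobox entries, 36 had H3K4me3 and H3K27me3, led by Otx1, Msx1, Irx1 and Irx3, and 19 had H3K27me3 only, led by Pax1, Lhx9 and Lhx3. Of the 19 Sox gene entries, 9 had H3K4me3 and H3K27me3, of 43 forkhead genes 12, of 13 T-box genes 5 and of 22 Fgf genes 9, against 9.06% of all genes.

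The genes of a Hox cluster lie in the order in which they act along the body, and the A and B clusters were divided by position. Hoxa2, Hoxa4 and Hoxa5 had H3K4me3 only, with scores of 2046.7 to 2692.2. Hoxa6, Hoxa7 and Hoxa9 had H3K4me3 and H3K27me3, and Hoxa10, Hoxa11 and Hoxa13 had H3K27me3 only. A single H3K27me3 peak of 49069 bp covered the starts of Hoxa7, Hoxa9, Hoxa10 and Hoxa11 and ended 415 bp from that of Hoxa13. Hoxa3 had both marks at annotated starts next to that of Hoxa6. In the B cluster, Hoxb1, Hoxb2, Hoxb3 and Hoxb4 had H3K4me3 only, Hoxb5, Hoxb6, Hoxb7, Hoxb8 and Hoxb9 both marks, and Hoxb13 H3K27me3 only in a peak of 66042 bp, the widest of the list. That peak also overlapped H3K9me3, but more than 3 kb from the Hoxb13 start. The C cluster broke the order, since Hoxc13, a regulator of hair differentiation, had H3K4me3 only with a score of 1173.1. Over the 4 clusters, 14 of 40 entries had H3K4me3 only, 13 both marks and 5 H3K27me3 only, against 49.2%, 9.06% and 5.82% of all genes. A further 5 had no peak, against 33.1%, 2 had H3K27me3 with H3K9me3, against 0.259%, and 1 had H3K4me3 with H3K9me3, against 0.984%. The D cluster is counted here but not described by gene.

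Genes of the hair follicle stem cells had H3K4me3, H3K27me3 or both. All 14 bulge stem cell genes had a mark, against 66.9% of all genes, and 7 had both, against 9.06%. Of the 14, 5 had H3K4me3 only (Id2, Krt15, Nfatc1, Tcf7l1 and Postn), 7 had H3K4me3 and H3K27me3 (Tbx1, Lgr5, Lhx2, Gli1, Foxc1, Fgf18 and Sox9), and Cd34 and Runx1 had H3K27me3 only. At Lgr5, the receptor gene of cycling follicle stem cells, the scores were 399.2 for H3K4me3 and 683.2 for H3K27me3, and at Lhx2, a regulator of the bulge, 305.8 and 845.2. At Sox9, which marks the outer root sheath, H3K4me3 led with 3100 against 69.72. Krt15 had an H3K4me3 peak of 7827 bp, while its neighbour Krt19 had H3K27me3 only.

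The study's own gene lists differed in H3K27me3. Of 220 entries of GUB, its genes with more mRNA in bulge cells than in non-bulge cells, 102 (46.4%) had H3K27me3 in these non-bulge cells and 85 of these had H3K4me3 with it and no H3K9me3. Of 99 GDB genes, with less mRNA in the bulge, 12 (12.1%) had H3K27me3 and 78 had H3K4me3 only. Of 422 entries of constantly expressed genes, 9 (2.13%) had H3K27me3 and 390 had H3K4me3 only. Over all genes, the share was 15.6% for H3K27me3, 49.2% for H3K4me3 only and 9.06% for H3K4me3 with H3K27me3 and no H3K9me3. H3K4me3, with or without another mark, was found at 190 GUB (86.4%), 91 GDB (91.9%) and 404 constant entries (95.7%). Its share over all genes was 59.6%. GUB genes with both marks included Igfbp5, an IGF-binding protein, with scores of 424.9 for H3K4me3 and 816.3 for H3K27me3, and Ctgf, a matricellular growth factor. The study chose these lists on mRNA of bulge and non-bulge cells and not on the peak lists. With scores of at least 100 in every list, 74 GUB and 7 GDB genes kept H3K27me3.

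Signals of the follicle niche had both combinations. All 20 BMP pathway genes had H3K4me3, against 59.6% of all genes, and 8 had H3K27me3 with it, against 9.06%. Those with H3K4me3 only were the ligands Bmp2 and Bmp7, the receptors Bmpr1a, Bmpr2 and Acvr1, the transducers Smad1, Smad5 and Smad9, the inhibitory Smad7, the targets Id1 and Id3, and the antagonist Sostdc1. Those with both marks were the antagonists Nog, Chrd, Grem1 and Fst, the ligands Bmp4 and Bmp6, the receptor Bmpr1b and the inhibitory Smad6. At Nog the scores were 1722.4 for H3K4me3 and 466.3 for H3K27me3. Among 19 Wnt ligands, 10 had both marks, against the same 9.06% (Wnt7a, Wnt11, Wnt2b, Wnt2, Wnt5a and Wnt1 led), and 7 had H3K4me3 only, against 49.2%, among them Wnt10a, Wnt3a and Wnt4. Of 14 outer root sheath and hair lineage genes, 5 had both marks (Lef1, Gata3, Shh, Msx2 and Dlx3), against 9.06% of all genes. Another 4 had H3K4me3 only, against 49.2%, 1 had H3K27me3 only, against 5.82%, and 4 had no peak, against 33.1%. At Shh the scores were 102.8 for H3K4me3 and 675.9 for H3K27me3.

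Suprabasal genes of the epidermis had H3K4me3 about as often as all genes. Of 22 entries, 13 (59.1%) had H3K4me3 only, against 59.6% of all genes with H3K4me3, with the spinous keratins Krt1 and Krt10 at 1642.5 and 2614.2 and the cornified envelope gene Lor at 2175.4, and 9 had no peak, among them Flg, Ivl and Tgm1. None had H3K27me3. Of 58 entries of the epidermal differentiation complex, 45 had no peak, against 33.1% of all genes, 11 had H3K4me3 only and 2 had H3K27me3 only. Of 50 keratin genes, 29 had no peak, against the same 33.1%, and 11 had H3K4me3 only, against 49.2% of all genes. H3K27me3 only was found at 9, against 5.82%, led by Krt8 and Krt19 with 825.3 and 284.9, and 1 had both marks. Of 43 collagen genes, 19 had both marks, against 9.06% of all genes, and 10 H3K4me3 only, with Col17a1 of the hemidesmosome first among the latter.

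H3K9me3 was found more often at starts of Zfp genes than over all genes. Of 365 Zfp entries, 53 (14.5%) had H3K9me3 at the start, against 2.8% of all genes, and 158 (43.3%, interval 38.3 to 48.4%) had an H3K9me3 peak between start and end, against 13.4% of all genes. At the start, 30 (8.22%) had H3K4me3 with it, against 0.984% of all genes, and 21 (5.75%) had H3K9me3 only, against 1.14%. All 3 marks were found at 2 (0.548%), near the 0.42% of all genes. Zfp850, Zfp936, Zfp950 and Zfp930 led among the genes with H3K9me3 only, with scores of 1617.8, 1506.9, 1252.7 and 985.9. Zfp758 and Zfp944, which start back to back, shared their H3K4me3 peak (1235.9) and an H3K9me3 peak of 8597 bp (1215.1) whose edge lay 2490 and 2543 bp from the starts. With any transcript start counted, 89 Zfp entries had H3K9me3, and with the gene start itself, 13. The counts over all genes moved the same way. Genes with H3K4me3 and H3K9me3 went from 220 to 421 with any transcript start and to 7 at the start itself. Those with H3K9me3 only went from 254 to 266 and to 72.

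Clustered protocadherins, cell surface proteins that give neurons their identity, had H3K9me3 at 11 of 24 starts, against 2.8% of all genes, of which 10 had H3K9me3 only, led by Pcdhb22 (312), Pcdhb21 (264.8) and Pcdhgc5 (197). Predicted genes made up 33.9% of the genes with H3K9me3 only and 9.08% of all genes. Reads that fit near-identical copies in these families equally well cannot be assigned to 1 of them, so that peaks there are uncertain.

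The 94 genes with all 3 marks were led by Klf14, Acot3, Igf2r, Hmcn1 and BC057022. At Klf14 an H3K27me3 peak of 31186 bp held the start, and H3K9me3 began 342 bp from it. Igf2r, the imprinted receptor for insulin-like growth factor 2, had scores of 620.5, 439.6 and 242.6 for H3K4me3, H3K27me3 and H3K9me3. Peg3 was the other imprinted gene with all 3, and of 26 imprinted genes matched, 4 had H3K9me3, against 2.8% of all genes, and 13 had H3K27me3, against 15.6%. At an imprinted gene the parental copies can carry different marks, which a peak list does not separate. With H3K27me3 and H3K9me3 and no H3K4me3, the leading genes were Tcfl5, Qprt, Slc18a2, Ankrd1 and Gpr50, with H3K9me3 scores of 107.8 to 225.2. Genes with H3K27me3 only were led by Slc32a1, Tbx2, Nr5a1, Rax and Pax1, with scores of 2781.9 to 3210.6. Those with H3K4me3 only were led by Bcam, Ccpg1, Efna3, Fam189a2 and Gzf1, which share the score of 3233.1.

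Receptor genes of the sense of smell mostly had no mark. Of 1087 olfactory receptor genes, 1054 had no peak, as did 312 of 320 vomeronasal entries, against 33.1% of all genes. Together these receptors made up 18.8% of the genes with no mark and 6.42% of all genes, and predicted genes made up 20.9% of those with no mark. Of 15 germline genes, 12 had none, and of 53 defensin entries 44, against the same 33.1%.

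Starts with H3K4me3 and H3K27me3 were counted with and without H3K9me3 in the other populations. Without H3K9me3 they numbered 2026 here, 357 in EA-HFSCs, 226 in LC-HFSCs and 1037 in non-LC-HFSCs. With H3K9me3 as well, they numbered 94 here, 1409 in EA-HFSCs, 1 in LC-HFSCs and 222 in non-LC-HFSCs. Genes with H3K4me3 and H3K9me3 and no H3K27me3 numbered 220 here, 7711 in EA-HFSCs, 6 in LC-HFSCs and 1860 in non-LC-HFSCs. Of the 2026 genes, 1012 (50.0%) had all 3 marks in EA-HFSCs, 415 (20.5%) H3K4me3 only and 227 (11.2%) the same combination. In non-LC-HFSCs 941 (46.4%) had the same combination and in LC-HFSCs 1140 (56.3%) had H3K4me3 only. The lists differ in their number of peaks, from 18041 over the 3 marks in LC-HFSCs to 89293 in EA-HFSCs, and differences in depth or antibody yield between libraries and differences between cells cannot be told apart with 1 list per mark.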

How the data were processed

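ChIP-seq was performed on nucleosomes of sorted mouse skin cells. Per the labels and methods, the authors trimmed reads with Trimmomatic 0.22, aligned them with Bowtie2 to mm9, combined the reads of replicate pools and called peaks with MACS against IgG of the same population, at a looser threshold for H3K27me3 and H3K9me3. The deposited lists give each peak's position and a score, which is 10 times the negative log10 of its p-value. They hold no read counts, so that the depth behind each peak is unknown.

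Peaks of the 3 lists that overlapped or touched were merged into loci with Python 3.11.15 and numpy 2.4.6. The start of each of 22367 protein-coding genes of GENCODE vM1 on NCBIM37, the same assembly as mm9, was given every mark with a peak within 3000 bp. CpG ratios covered 500 bp to either side. The overlaps were checked against bedtools 2.31.1 on 20000 simulated peaks. Symbols with several annotation entries were counted once per entry.

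Shares carry 95% Wilson intervals. No test between groups was made, since each mark had 1 pooled list. The members and gene lists were chosen with earlier results of these data known. Named were the 5 genes and 2 loci per combination with the highest score of the weakest mark, leaving out predicted genes, and up to 6 genes per list and combination in order of score. The genes of the printed sequences, Hmx2, Krt1, Lor, Ptprc, Col1a2 and other list members beyond that number were chosen after their values were seen. Alternatives were a score of at least 50 or 100, equal numbers of top-scoring peaks, an overlap of at least 50%, merging of peaks under 1 kb apart, windows of 1000 bp or the start itself, any annotated transcript start, and the 19 autosomes. Some genes of these lists are counted but not reported by name here.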

Additional observations from a re-analysis of the deposited data

How the results depend on the processing

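No paired analysis was possible because each mark had 1 pooled list. Over all settings, 1443 of 1770 recomputed values stayed within their interval or within 1.5 times the count, and 327 moved. For none of the values below was the cause of the shift tested beyond the smaller number of peaks that a higher score leaves.

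With scores of at least 100 in every list, 7096 H3K27me3 and 4190 H3K9me3 peaks remained. Loci with H3K4me3 and H3K27me3 then numbered 1592 and loci with all 3 marks 33. Genes with H3K4me3 and H3K9me3 numbered 58, genes with H3K9me3 only 109, Zfp genes with H3K9me3 30 and GDB genes with H3K27me3 7. Of H3K4me3 middles, 8.53% lay in H3K27me3 peaks, and of H3K9me3 middles 0.1432% lay in H3K4me3 peaks.

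Genes with H3K4me3 and H3K27me3 numbered 1213 at the start itself. Genes with H3K4me3 and H3K9me3 numbered 35 in a window of 1000 bp, 7 at the start itself and 421 with any transcript start. Genes with H3K9me3 only numbered 132 in a window of 1000 bp and 72 at the start itself. Zfp genes with H3K9me3 numbered 24, 13 and 89 in a window of 1000 bp, at the start itself and with any transcript start. The percent of H3K27me3 genes with H3K4me3 was 58.05% in 1000 bp, 48.82% at the start itself, 64.12% with any transcript start, 54.47% with scores of at least 100 and 49.71% with equal numbers of peaks.

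The percent of loci with more than 1 mark was 5.019% with an overlap of at least 50%, 6.326% after merging, 5.075% with equal numbers of peaks, and 6.033% and 6.167% with scores of at least 50 and 100. The share of H3K27me3 peaks with H3K4me3 was 2.625% with an overlap of 50%, 18.52% after merging, and 18.61% and 24.01% with scores of at least 50 and 100. The share of H3K4me3 peaks with H3K27me3 was 10.5% with an overlap of 50%, and 11.48% and 9.574% with these scores. The share of H3K9me3 peaks with H3K27me3 was 3.81% with an overlap of 50%, 4.759% after merging, and 3.975% and 2.697% with these scores.

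The median distance from H3K27me3 to H3K4me3 was 22470 bp after merging, and 19748 and 23138 bp with scores of at least 50 and 100. That from H3K9me3 to H3K4me3 was 39557 bp after merging, and 35211 and 34808.5 bp with these scores. The median width of H3K27me3 peaks with H3K4me3 was 6137 bp after merging, and 5146 and 5929.5 bp with these scores. Without H3K4me3 it was 2674 bp after merging, and 2814 and 4407.5 bp with these scores. GUB genes with H3K27me3 numbered 68 to 108 in all settings tried.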
